A study of Bos taurus with 10 samples.

Results

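The genes of cell adhesion and cell junctions were compared between in vitro matured (IVM) and immature bovine oocytes. A probe set of the Affymetrix bovine array was included when its single annotated symbol named an integrin, cadherin, protocadherin, catenin or catenin-like protein, claudin or other tight junction protein, connexin, desmosomal protein, syndecan, tetraspanin or a cell adhesion molecule of the ICAM, VCAM, NCAM and ALCAM type. The rule used names alone and no measured value. It found 142 of the 24016 tested probe sets, which represented 96 genes in 11 families. *OCLN* and *GJA4*, which the rule would also have taken, were not analysed here.

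There were 5 pools of IVM oocytes and 5 pools of immature oocytes, each on an array of its own that is called by its replicate number. All came from cumulus oocyte complexes, aspirated from follicles of 3 to 8 mm in the ovaries of slaughtered cows, whose ages and breeds the sources used here do not give. IVM complexes were cultured for 24 h at 39°C in TCM-199 medium with EGF (epidermal growth factor, 10 ng/ml) and 10% fetal calf serum and were then stripped of their cumulus cells, whereas immature complexes were stripped at 0 h. Oocytes without visible cumulus were frozen in tubes of 10, the study pooled them by day of collection, and 100 ng of RNA per pool was amplified in 2 cycles, so that each value is an average over oocytes of many animals and the p-values measure the spread between such pools.

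Integrins are receptors made of an alpha and a beta chain that bind the extracellular matrix, and cadherins bind cells to each other and are tied to actin through catenins. Claudins seal tight junctions, desmosomal cadherins anchor intermediate filaments, and connexins form the gap junctions through which oocytes and cumulus cells exchange small molecules until maturation. Tetraspanins are membrane proteins that gather integrins and other partners, and in the mouse CD9 on the egg is needed for fusion with sperm. All of these are also made by the somatic cells of the follicle, and in bulk RNA more cells of a type and more RNA per cell cannot be told apart.

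Most of these genes gave nearly the same value on all arrays. Only 47 of the 142 probe sets, for 42 genes, spanned at least 0.01 on the log2 scale over the 10 arrays, and these are called varying below, against 9460 of 24016 probe sets in all (39.4%). Some of these 42 genes also had a probe set that hardly varied. Among the varying probe sets, 14 were higher in IVM oocytes and 7 lower at a Benjamini-Hochberg adjusted p under 0.05 in the limma fit over all probe sets. These are 29.8% and 14.9% of the 47, beside 34.0% and 31.7% of all varying probe sets, so the share of higher probe sets was near the background and that of lower ones was below it. At the stricter threshold of 0.0001, which is the false discovery rate of the study's methods, 1 was lower and 0 were higher, beside 12.1% and 2.38% of all varying probe sets. "Rose" and "fell" are used for an adjusted p under 0.05 and describe array signal. The paper raises the possibility that the length of the poly(A) tail alters amplification, and it used random primers in later PCR. In its PCR of a panel of genes, random and oligo(dT) primers gave similar patterns. Whether tail length altered the array values was not tested.

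Counted over all 142 probe sets, 15 were higher and 13 lower at 0.05, beside 15.5% and 15.0% of the 24016, and 0 higher and 1 lower at 0.0001, beside 0.974% and 4.81%. This count holds 7 probe sets that hardly varied and whose differences were at most 6.54e-08 on the log2 scale, and they are not described as changes. With each array centred on its median the split over the 142 was 15 higher and 7 lower, beside 3343 and 2957 of all 24016. With each array centred on its poly-A control transcripts it was 9 higher and 123 lower, beside 807 and 20427 of all 24016. Replicate pools were days of collection and the complexes were divided between the groups, but the sources used here do not state that equal numbers are the same day. With the replicate number as a block 15 of the 142 were higher and 8 lower at 0.05, beside 3021 and 3124 of all 24016. At 0.0001 the block left 0 of all 24016 in either direction, and so 0 of the 142. Of the 47 varying probe sets, 32 had a positive difference (68.1%) and the median difference was 0.17, against 57.5% and 0.18 for all varying probe sets.

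The groups did not overlap for 15 of the 47 probe sets (31.9%), with 9 higher and 6 lower on all IVM arrays, against 56.3% of all varying probe sets (27.0% higher and 29.3% lower). The adhesion genes also spread more between pools. Their median SD was 0.54 among IVM arrays and 0.22 among immature arrays, against 0.31 and 0.19 for all varying probe sets. The plot of differences shows the wide intervals among the integrins, *CDH2* and *GJA1* and the narrow ones among the catenins.

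**Figure D1:**
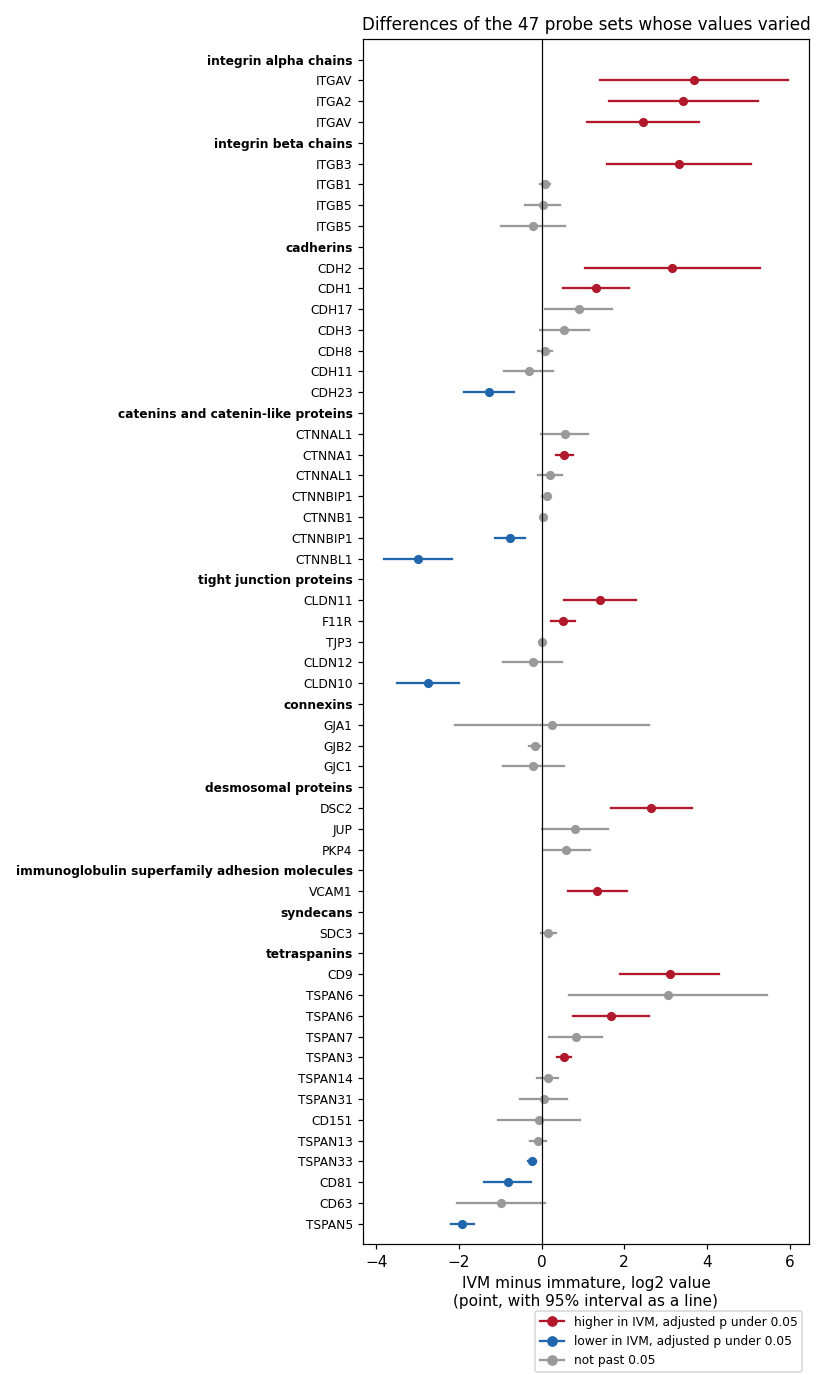
Difference between IVM and immature oocytes on the log2 scale (x axis) for the 47 varying probe sets of 42 genes, by family, with points for the difference and lines for its 95% interval. Red points are higher and blue points lower in IVM oocytes at an adjusted p under 0.05, and grey points did not pass; the 14 red points include 3 integrin alpha probe sets and the lowest blue point of the tetraspanins is *TSPAN5* at -1.92.

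The arrays differed in ways that bear on all that follows. Poly-A control transcripts averaged 7.95 ± 0.20 on IVM arrays and 7.02 ± 0.15 on immature arrays (log2, SD, n = 5 each), a difference of 0.94 (p = 0.00794 by a two-sided exact permutation test, which is the minimum for 5 against 5 arrays), and centring on them lowers every difference and the median of all probe sets by 0.94. Hybridization controls averaged 10.92 ± 0.19 on IVM arrays and 10.02 ± 0.73 on immature arrays (exact permutation test, two-sided, p = 0.0556), with immature replicates 1, 2 and 3 between 9.38 and 9.73. With immature replicates 4 and 5 alone as the immature group, which leaves fewer arrays, 2 of the 47 probe sets were higher and 4 lower at 0.05. Of all 24016 probe sets 1235 were higher and 2177 lower in that setting, against 3732 and 3602 with all arrays. Among the 47, 15 of the 21 calls were lost, and those of *CTNNA1*, *CTNNBIP1*, *CTNNBL1*, *CLDN10*, *TSPAN3* and *TSPAN5* were kept.

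Markers of follicular somatic cells differed between the groups, in a direction that depended on the list. Of 20 genes abundant in somatic cells, such as the collagen gene *COL4A1*, 14 varied. Of these 11 were higher in IVM oocytes and 0 lower, beside 34.0% and 31.7% of all varying probe sets. The 11 include *COL3A1*, with a difference of only 0.0093. The exception in sign was *VIM*, the vimentin of mesenchymal cells, with a difference of -2.51 that did not pass (adjusted p = 0.128). The mean log2 value of the 14 was 9.02, 10.05, 10.08, 11.16 and 8.79 on IVM arrays 1 to 5 and 7.23, 6.57, 7.42, 8.48 and 7.15 on immature arrays 1 to 5. Their summed level on the linear scale ran from 9682 to 68785 on IVM arrays and from 1992 to 24261 on immature arrays. Arrays numbered 4 were thus highest in each group for this list. The somatic markers *KRT8*, *COL1A1*, *COL1A2*, *TAGLN*, *ACTA2* and *CALD1* hardly varied.

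Of the other marker lists, 5 of 5 varying cumulus and expansion genes were higher in IVM oocytes, as were 3 of 4 theca and stroma genes, whereas 4 of 11 granulosa genes were lower and 0 higher. Of all varying probe sets 34.0% were higher and 31.7% lower. Granulosa means were 7.74, 8.18, 8.17, 8.74 and 7.49 on IVM arrays 1 to 5. On immature arrays 1 to 5 they were 9.39, 7.73, 10.18, 10.01 and 9.02, so that array 3 was the highest there. Of 10 oocyte markers, 5 were lower and 1 higher, and their summed level ran from 32374 to 43982 on IVM arrays and from 71360 to 95988 on immature arrays, so the defining markers of the labelled cell were present on every array. Of 11 blood and immune genes only *CSF1R*, a receptor of macrophages, varied, and it was lower, while *PTPRC* and *HBB* hardly varied. The part of these cell types in the differences of the adhesion genes was not tested.

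The integrin chains of the vitronectin receptor rose together in IVM oocytes. *ITGAV*, the alpha V chain, which binds the RGD motif of matrix proteins, had log2 values of 11.80, 12.73, 11.60, 13.90 and 9.95 on IVM arrays 1 to 5, against 7.62, 6.38, 8.10, 10.98 and 8.47 on immature arrays 1 to 5. Only the lowest IVM array lay below the highest immature array, and the difference was 3.69 (SE 0.99, 12.9-fold, adjusted p = 0.0228). A second *ITGAV* probe set rose by 2.46 (SE 0.59, adjusted p = 0.0138), with IVM values between 8.28 and 11.10 and immature values between 6.29 and 8.39. The first probe set was no longer past 0.05 without IVM array 2 (adjusted p = 0.0557), immature array 1 (adjusted p = 0.0565) or immature array 3 (adjusted p = 0.0517).

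*ITGB3*, the beta chain that pairs with alpha V and with the platelet chain alpha IIb, was at 9.57, 11.18, 10.96, 12.53 and 9.24 on IVM arrays, against 6.97, 6.35, 7.20, 9.21 and 7.12 on immature arrays. The groups did not overlap, although the lowest IVM array and the highest immature array lay close together. The difference was 3.32 (SE 0.76, 95% interval 1.57 to 5.07, 10.0-fold, adjusted p = 0.0110). The other probe sets of *ITGB3* hardly varied, and *ITGA2B*, the platelet partner, hardly varied either.

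*ITGA2*, which with the beta 1 chain forms a collagen receptor, ordered the arrays of each group as *ITGB3* did. Its values were 9.46, 10.83, 10.62, 12.23 and 8.47 on IVM arrays, against 6.48, 5.87, 6.95, 8.62 and 6.56 on immature arrays. The lowest IVM array lay just below the highest immature array, and the difference was 3.43 (SE 0.79, 10.7-fold, adjusted p = 0.0111). The other *ITGA2* probe set hardly varied. For *ITGA2*, *ITGB3* and both *ITGAV* probe sets the arrays numbered 4, which had the highest means of the abundant somatic markers, were the highest of their group. Without these arrays the differences were 3.38, 3.32, 3.88 and 2.39, all past 0.05.

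The beta chains *ITGB1* and *ITGB5* did not pass the test. *ITGB1*, the common partner of most alpha chains, had values of 12.96, 12.87, 12.85, 13.02 and 12.89 on IVM arrays, against 12.74, 12.89, 12.74, 12.80 and 12.95 on immature arrays. This was the narrowest spread of any varying integrin probe set, and the difference was 0.09 (95% interval -0.03 to 0.21, adjusted p = 0.247). *ITGB5*, another partner of alpha V, ran from 11.78 to 13.11 on IVM arrays and from 11.98 to 13.32 on immature arrays, with a difference of -0.22 (95% interval -0.98 to 0.55, adjusted p = 0.724), and its other varying probe set had a difference of 0.03. The direction of *ITGB1* and of the second *ITGB5* probe set turned negative when arrays were centred on the poly-A controls.

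The other integrin chains gave nearly constant values. They were the alpha chains *ITGA3*, *ITGA4*, *ITGA5*, *ITGA7*, *ITGA10*, *ITGA2B*, *ITGAL* and *ITGAM* and the beta chains *ITGB2*, *ITGB4*, *ITGB6* and *ITGB7*. Among them are the leukocyte chains *ITGAL*, *ITGAM* and *ITGB2*, of which *ITGB2* is itself among the blood and immune markers above. In all, 2 of 10 alpha chain genes and 3 of 7 beta chain genes had a varying probe set.

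**Figure D2:**
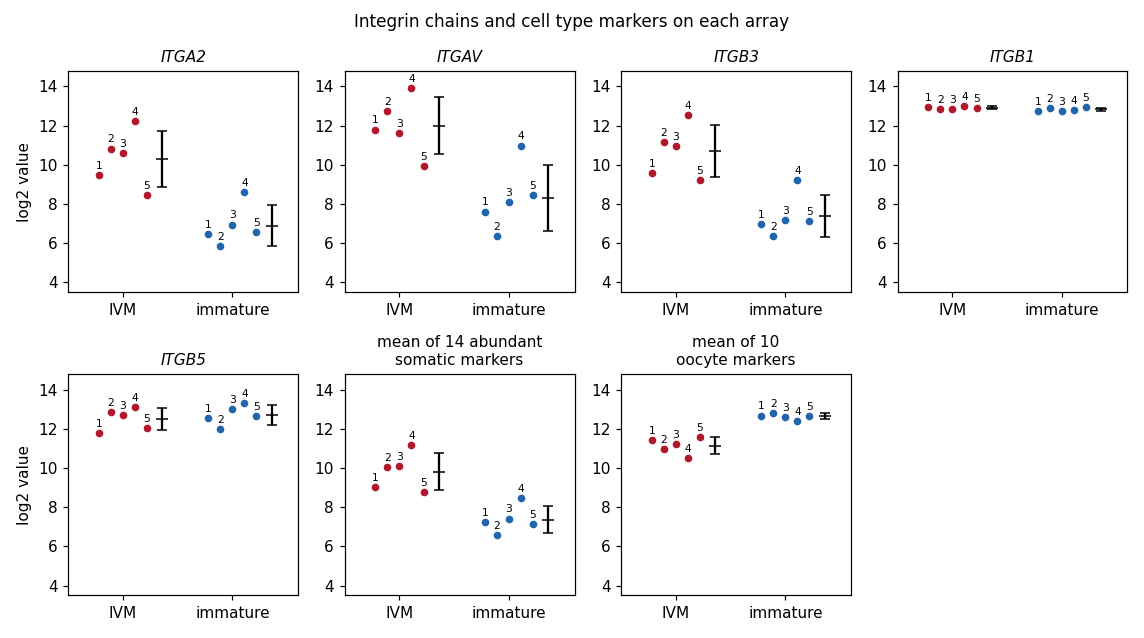
Log2 value (y axis) of integrin chains and mean log2 value of 14 somatic and 10 oocyte markers on each IVM (red) and immature (blue) array, with array numbers, and mean ± SD in black. *ITGA2*, *ITGAV* and *ITGB3* are highest on array 4 of each group, as is the somatic marker mean (11.16 and 8.48), while *ITGB1* stays between 12.74 and 13.02 on all 10 arrays.

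Matrix ligands of integrins moved in both directions. Of 22 ligand genes on the array 13 varied, of which 7 rose, 2 fell and 4 did not pass, beside 34.0% higher and 31.7% lower of all varying probe sets, with a median difference of 0.79 beside 0.18 for all varying probe sets. The 7 include *COL3A1*, with a difference of only 0.0093. *THBS2*, a thrombospondin, averaged 12.93 ± 1.17 in IVM oocytes and 5.35 ± 1.66 in immature oocytes (SD, n = 5 each), a difference of 7.58 (adjusted p = 3.45e-04). *COL4A1*, a basement membrane collagen that is also among the somatic markers, rose by 3.38 (adjusted p = 0.00101) and tenascin *TNC* by 3.00 (adjusted p = 0.0120).

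In the other direction, *CCN1*, a matricellular ligand of alpha V integrins, averaged 5.92 ± 0.66 in IVM oocytes and 10.35 ± 1.37 in immature oocytes (SD, n = 5 each), a difference of -4.43 (adjusted p = 0.00137). *TGFBI*, a further matrix ligand, fell by 0.60 (adjusted p = 1.75e-04). Both groups of arrays were apart for these ligands, and the other well known ligands *FN1*, *VTN* and *SPP1* hardly varied. *CCN1* was highest on immature array 4, at 12.09, and *THBS2* on IVM array 4, at 14.51.

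A list of focal adhesion and integrin adaptor genes, which is not limited to actin linkers, went in both directions. Of 21 adaptor genes 14 varied, and 6 rose, 5 fell and 3 did not pass, beside 34.0% higher and 31.7% lower of all varying probe sets. The median difference was 0.42, beside 0.18 for all varying probe sets. *CAV1*, the caveolin of membrane pits, rose by 4.30 (adjusted p = 8.47e-04) and *VCL*, the actin linker vinculin, by 1.48 (adjusted p = 2.49e-05). Vinculin was at 10.19 ± 0.19 in IVM oocytes and 8.71 ± 0.17 in immature oocytes (SD, n = 5 each), a small spread in contrast to the integrins.

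The 5 that fell were lower on every IVM array than on any immature array, which makes 5 of 14, beside 29.3% of all varying probe sets. *GIT2*, a scaffold of focal adhesion turnover, was at 8.38 ± 0.08 in IVM oocytes and 11.75 ± 0.14 in immature oocytes (difference -3.37, adjusted p = 5.81e-08), and *ACTN1*, which encodes alpha-actinin, was at 8.50 ± 0.45 in IVM oocytes and 11.55 ± 0.11 in immature oocytes (difference -3.05, adjusted p = 1.28e-05). *ITGB1BP1*, which binds the tail of the beta 1 chain, fell by 2.93 (adjusted p = 8.08e-04).

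Of the 10 cadherin genes 7 varied, and *CDH1* and *CDH2* rose. *CDH1*, which encodes the E-cadherin of epithelia and of the early embryo, had values of 10.81, 10.33, 10.81, 9.50 and 11.13 on IVM arrays, against 9.06, 9.75, 8.64, 8.95 and 9.56 on immature arrays. A single IVM array, number 4, lay within the immature range, and the difference was 1.32 (SE 0.35, 2.50-fold, adjusted p = 0.0203). On that array the oocyte marker mean was lowest, at 10.49, and the somatic marker mean highest. Without it the difference was 1.58 (adjusted p = 0.00346), and with centring on the poly-A controls it was 0.39 and no longer passed (adjusted p = 0.280). With the replicate number as a block the adjusted p was 0.0524. The other *CDH1* probe set hardly varied.

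*CDH2*, the N-cadherin that is made by granulosa cells among others, had the opposite pattern across arrays. Its values were 10.00, 11.26, 10.80, 12.65 and 9.00 on IVM arrays, against 6.92, 5.73, 7.78, 9.97 and 7.51 on immature arrays. Array 4 was the highest of each group, and the difference was 3.16 (SE 0.92, 8.95-fold, adjusted p = 0.0316). The call was lost in 7 of the 10 fits that left out 1 array. Without IVM arrays 2, 3 or 4 or immature arrays 1, 2, 3 or 5 the adjusted p was 0.0717, 0.0600, 0.0578, 0.0741, 0.0652, 0.0614 and 0.0670 in that order. Without both arrays numbered 4 the difference was 3.28 (adjusted p = 0.0122).

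*CDH23*, a cadherin known from the tip links of hair cells in the inner ear, was the only cadherin that fell. It was at 7.17, 6.77, 7.03, 6.31 and 7.48 on IVM arrays, against 7.97, 8.83, 7.79, 8.15 and 8.38 on immature arrays. The groups were apart, with a difference of -1.27 (SE 0.27, adjusted p = 0.00701). The other *CDH23* probe set hardly varied.

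The other varying cadherins did not pass. *CDH17*, the liver and intestine cadherin, was higher on every IVM array (6.59 to 8.67) than on the immature arrays (6.36 to 6.50), and its difference of 0.90 had an adjusted p of 0.0974 and became 0.56 without IVM array 4 (adjusted p = 0.0185). *CDH3*, the P-cadherin of placenta and epithelia, ran from 10.27 to 11.45 on IVM arrays and from 9.95 to 10.75 on immature arrays (difference 0.55, adjusted p = 0.148, and 0.72 with adjusted p = 0.0428 without IVM array 4). Both differences turned negative with centring on the poly-A controls. *CDH11*, the cadherin of mesenchymal cells, and *CDH8*, of the nervous system, had differences of -0.31 and 0.09. *CDH5*, which marks vessel walls, *CDH13*, *CDH16* and the protocadherins *PCDH1*, *PCDH10* and *PCDH12* hardly varied.

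All 7 catenin and catenin-like probe sets varied, of which 1 rose, 2 fell and 4 did not pass, beside 34.0% higher and 31.7% lower of all varying probe sets. *CTNNA1*, the alpha-catenin that ties cadherins to actin, was at 12.39, 12.35, 12.26, 12.35 and 12.55 on IVM arrays, against 11.71, 12.06, 11.64, 11.83 and 11.94 on immature arrays. The groups were apart, and the difference was 0.54 (SE 0.09, 1.46-fold, adjusted p = 0.00201), but -0.39 with centring on the poly-A controls. *CTNNB1*, the beta-catenin of adherens junctions and of Wnt signalling, lay between 11.39 and 11.49 on IVM arrays and between 11.34 and 11.42 on immature arrays, with a difference of 0.03 (95% interval -0.02 to 0.08, adjusted p = 0.333).

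The catenin-like proteins that fell are not junction components. *CTNNBL1*, a protein with catenin-like repeats that associates with the spliceosome, was at 7.17, 8.20, 7.62, 9.04 and 7.13 on IVM arrays, against 10.95, 10.77, 10.82, 10.73 and 10.87 on immature arrays. The immature arrays were tight and the IVM arrays were all lower, with a difference of -3.00 (SE 0.36, 95% interval -3.82 to -2.17, adjusted p = 3.63e-04). *CTNNBIP1*, an inhibitor of the binding of beta-catenin to its transcription factor partners, ran from 9.78 to 10.26 on IVM arrays and from 10.52 to 11.15 on immature arrays, a difference of -0.77 (SE 0.15, adjusted p = 0.00573). Its other probe set had a difference of 0.12 (adjusted p = 0.108). *CTNNAL1*, which encodes alpha-catulin, had differences of 0.20 and 0.55 on 2 probe sets, neither of which passed (adjusted p = 0.298 and 0.144).

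**Figure D3:**
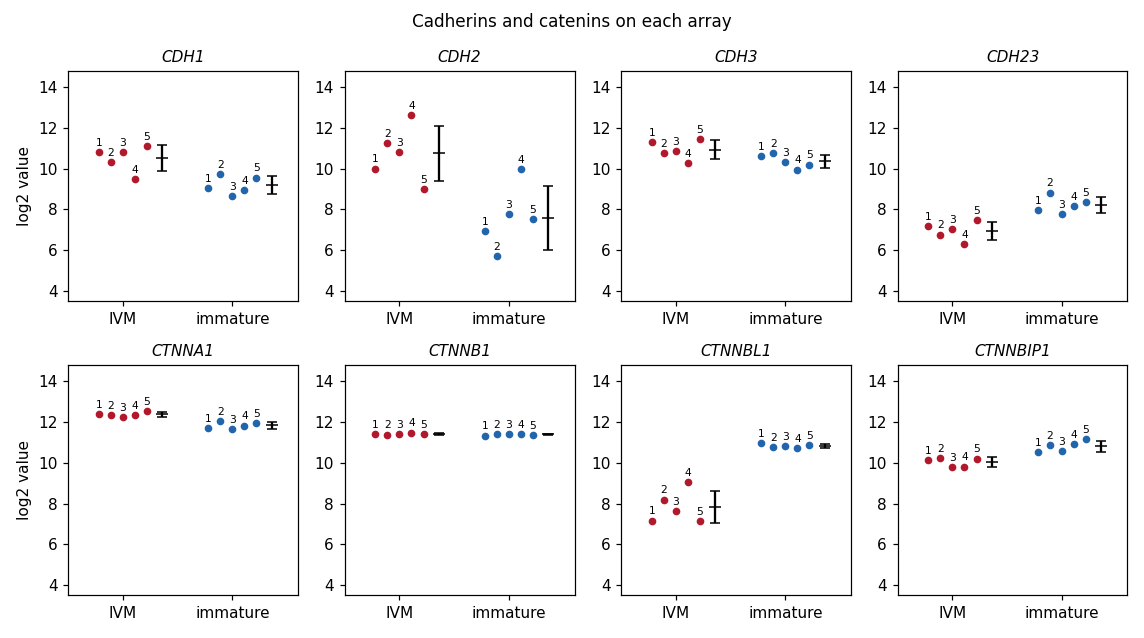
Log2 value (y axis) of cadherins and catenins on each IVM (red) and immature (blue) array, with array numbers, and mean ± SD in black. *CDH1* and *CDH2* are both higher in IVM oocytes, but array 4 of the IVM group is the lowest for *CDH1* (9.50) and the highest for *CDH2* (12.65), and *CTNNBL1* is lower on all IVM arrays.

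Tight junction genes were mostly flat, and the 5 that varied went in different directions. *CLDN10*, a claudin that forms ion pores between cells, was at 9.43, 9.10, 9.39, 8.32 and 10.28 on IVM arrays, against 12.01, 12.27, 12.26, 11.76 and 11.94 on immature arrays. The groups were more than a log2 unit apart, and the difference was -2.74 (SE 0.33, 95% interval -3.50 to -1.99, adjusted p = 3.56e-04). Array 4 was the lowest of each group, as it was for the oocyte marker mean.

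*CLDN11*, a claudin of myelin and of Sertoli cells, had values of 10.53, 10.90, 10.40, 12.15 and 10.06 on IVM arrays, against 8.99, 9.45, 9.28, 9.67 and 9.57 on immature arrays. All IVM arrays were higher, and the difference was 1.42 (SE 0.38, 2.67-fold, adjusted p = 0.0217). It was no longer past 0.05 without IVM array 2 (adjusted p = 0.0503), immature array 1 (adjusted p = 0.0553) or immature array 3 (adjusted p = 0.0506), nor with centring on the poly-A controls (0.48, adjusted p = 0.115). The other *CLDN11* probe set hardly varied.

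*F11R*, the junctional adhesion molecule A, ran from 8.03 to 8.48 on IVM arrays and from 7.49 to 8.08 on immature arrays. Its difference was 0.51 (SE 0.13, adjusted p = 0.0165), or -0.42 with centring on the poly-A controls, and without both arrays numbered 4 its adjusted p was 0.0780. *CLDN12* and *TJP3*, which encodes the scaffold ZO-3, had differences of -0.21 (adjusted p = 0.721) and 0.01 (adjusted p = 0.944). The claudins *CLDN1*, *CLDN2*, *CLDN3*, *CLDN4*, *CLDN5*, *CLDN6*, *CLDN7*, *CLDN15*, *CLDN16*, *CLDN18* and *CLDN19* and the scaffold *TJP1* hardly varied.

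Of 13 junction adaptor and polarity genes on the array 9 varied, and 4 rose, 2 fell and 3 did not pass. This stands beside 34.0% higher and 31.7% lower of all varying probe sets. The median difference was 0.71, beside 0.18 for all varying probe sets. *MAGI3*, a scaffold of tight junctions, was at 7.84 ± 0.36 in IVM oocytes and 10.89 ± 0.46 in immature oocytes (SD, n = 5 each), a difference of -3.05 (adjusted p = 4.82e-05). *JAM3*, a junctional adhesion molecule like *F11R*, fell by 1.83 (adjusted p = 1.79e-04). The polarity protein gene *PARD6B* was 0.92 higher (adjusted p = 0.0111), a difference that became -0.02 with centring on the poly-A controls.

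None of the connexins passed the test. *GJA1*, connexin 43, which couples granulosa and cumulus cells, had values of 10.49, 11.38, 11.25, 12.89 and 9.45 on IVM arrays, against 10.25, 8.11, 12.42, 12.92 and 10.48 on immature arrays. The arrays of each group covered a range of more than 3 log2 units with full overlap, and the difference was 0.26 with a 95% interval of -2.09 to 2.61 (adjusted p = 0.951). Array 4 was again the highest of each group.

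*GJC1*, connexin 45, ran from 8.25 to 10.01 on IVM arrays and from 9.26 to 9.81 on immature arrays (difference -0.20, 95% interval -0.94 to 0.55, adjusted p = 0.739). *GJB2*, connexin 26, was at 6.55 ± 0.12 in IVM oocytes and 6.72 ± 0.04 in immature oocytes (SD, n = 5 each), a difference of -0.17 (adjusted p = 0.0508), or -0.21 without IVM array 5 (adjusted p = 0.00565). *GJB1*, *GJB5* and *GJB6* hardly varied.

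Among desmosomal genes *DSC2* stood out by its values. *DSC2*, the desmocollin found most widely in tissues, was at 7.80, 8.83, 7.97, 9.60 and 7.16 on IVM arrays, against 5.45, 5.48, 5.73, 5.81 and 5.61 on immature arrays. All IVM arrays were higher by more than 1 log2 unit, and the difference was 2.66 (SE 0.43, 95% interval 1.67 to 3.64, 6.30-fold, adjusted p = 0.00184). *JUP*, the plakoglobin that links desmosomal cadherins to filaments, had a difference of 0.81 (adjusted p = 0.126) and *PKP4*, a plakophilin-related protein, one of 0.59 (adjusted p = 0.113). Both differences turned negative with centring on the poly-A controls, and *PKP4* passed without IVM array 4 (0.79, adjusted p = 0.00951).

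The remaining desmosomal genes, *DSC1*, *DSC3*, *DSG1*, *PKP1*, *PKP2* and *PKP3*, hardly varied. Of the immunoglobulin-like adhesion molecules only *VCAM1* varied, which binds the integrin alpha 4 beta 1 on leukocytes. It was at 6.75, 7.89, 7.58, 8.39 and 6.87 on IVM arrays, against 6.08, 6.02, 6.23, 6.32 and 6.08 on immature arrays. The groups did not overlap, and the difference was 1.35 (SE 0.31, 2.55-fold, adjusted p = 0.0115), or 0.41 with centring on the poly-A controls (adjusted p = 0.0830). *ICAM1*, *ICAM3*, *NCAM1* and *ALCAM* hardly varied. Of the syndecans, heparan sulfate proteoglycans of the cell surface, *SDC3* had a difference of 0.17 (adjusted p = 0.151), which turned negative with centring on the poly-A controls, and *SDC2* hardly varied.

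**Figure D4:**
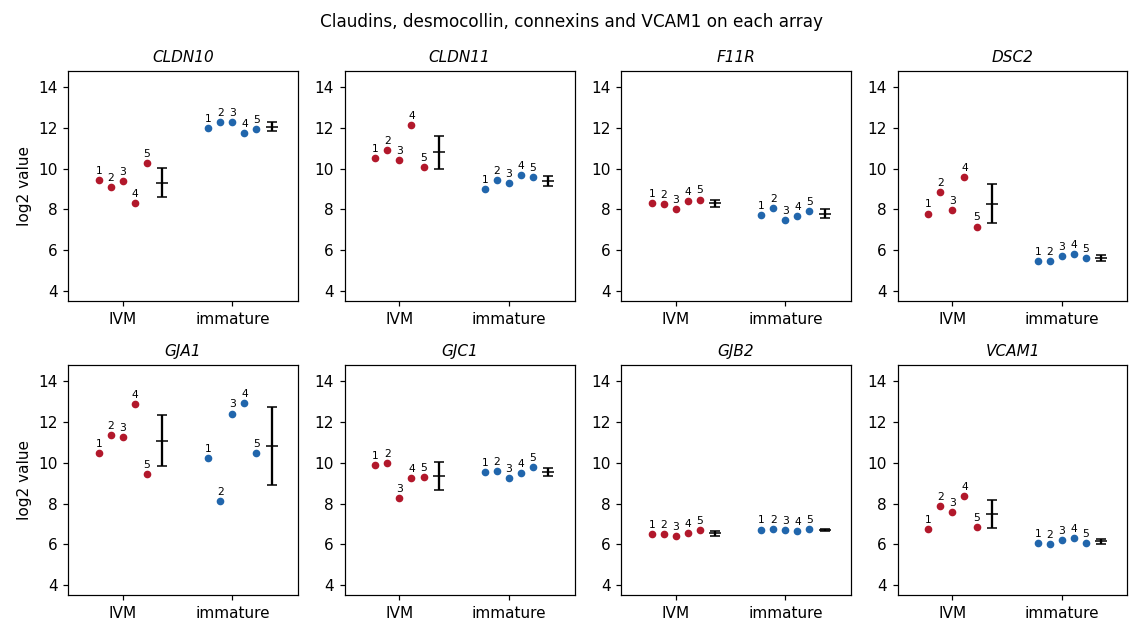
Log2 value (y axis) of tight junction, desmosomal and connexin genes and *VCAM1* on each IVM (red) and immature (blue) array, with array numbers, and mean ± SD in black. *CLDN10* is lower and *CLDN11*, *DSC2* and *VCAM1* are higher on all IVM arrays, while *GJA1* ranges from 9.45 to 12.89 on IVM arrays and from 8.11 to 12.92 on immature arrays.

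Tetraspanins were the largest family, with 12 of 22 genes varying, and moved in both directions. *TSPAN5*, which escorts the protease ADAM10 to the cell surface, was at 9.55, 9.47, 9.74, 9.85 and 9.80 on IVM arrays, against 11.76, 11.72, 11.75, 11.29 and 11.47 on immature arrays. The groups were far apart and each was tight, with a difference of -1.92 (SE 0.12, 95% interval -2.19 to -1.64, 3.78-fold lower in IVM oocytes, adjusted p = 7.56e-06). It was the only member of the 142 past 0.0001 and stayed past it whichever array was left out. With the replicate number as a block its adjusted p was 0.00365, and 0 of all 24016 probe sets passed 0.0001 in that fit.

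*CD9* rose, with a wider spread between pools. Its values were 9.78, 11.25, 10.50, 12.44 and 9.87 on IVM arrays, against 7.54, 7.68, 7.25, 8.28 and 7.59 on immature arrays. The lowest IVM array was above the highest immature array, and the difference was 3.10 (SE 0.52, 8.57-fold, adjusted p = 0.00224), or 2.83 without the arrays numbered 4 (adjusted p = 0.00160), which were the highest of their groups. *CD81*, the close relative with which CD9 acts at fertilization in the mouse, was lower, with values between 7.90 and 9.19 on IVM arrays and between 9.00 and 9.67 on immature arrays and a difference of -0.81 (SE 0.25, adjusted p = 0.0378). That call was lost without IVM arrays 1, 2, 3 or 5 (adjusted p = 0.0755, 0.0700, 0.0527 and 0.0672) or immature arrays 1, 2 or 5 (adjusted p = 0.0888, 0.0838 and 0.0851), and with the replicate number as a block (adjusted p = 0.0957).

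*CD63*, a tetraspanin of late endosomes and secreted vesicles, depended on a single array. It was at 9.17, 10.41, 9.62, 11.44 and 8.89 on IVM arrays, against 11.03, 10.77, 10.93, 10.96 and 10.76 on immature arrays. IVM array 4 alone lay above the immature arrays, the difference was -0.98 (95% interval -2.05 to 0.08, adjusted p = 0.159), and without that array it was -1.37 (adjusted p = 0.010).

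*TSPAN6*, a tetraspanin found in exosomes, rose by 1.67 on a probe set whose groups did not overlap (7.69 to 9.60 on IVM arrays, 6.06 to 7.65 on immature arrays, SE 0.40, adjusted p = 0.0140). Its other probe set had a difference of 3.06 that did not pass (adjusted p = 0.0591), with values from 9.84 to 13.71 on IVM arrays and from 5.83 to 10.95 on immature arrays. *TSPAN3* rose by 0.55 (SE 0.07, adjusted p = 6.66e-04), with tight values of 11.36 to 11.72 on IVM arrays and 10.96 to 11.14 on immature arrays, and its difference was -0.38 with centring on the poly-A controls. *TSPAN7*, known for its role in neurons, had a difference of 0.82 (adjusted p = 0.0616), which was 1.03 without IVM array 4 (adjusted p = 0.00900) and negative with centring on the poly-A controls.

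The other tetraspanins that, like TSPAN5, carry ADAM10 changed little or not measurably. *TSPAN33* fell by 0.24 (SE 0.04, adjusted p = 0.00294), with values from 6.90 to 7.06 on IVM arrays and from 7.12 to 7.28 on immature arrays. These values lay close to the array medians of 7.04 to 7.10. *TSPAN14* had a difference of 0.15 (adjusted p = 0.376), or -0.78 with centring on the poly-A controls, and *TSPAN15* and *TSPAN17* hardly varied. *ADAM10* itself was at 10.79 ± 0.21 in IVM oocytes and 10.19 ± 0.28 in immature oocytes (SD, n = 5 each), a difference of 0.59 (adjusted p = 0.0189), or -0.34 with that centring, and with the replicate number as a block its adjusted p was 0.0817.

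*CD151*, the partner of laminin-binding integrins, *TSPAN13* and *TSPAN31* had differences of -0.06, -0.10 and 0.05, none of which passed. *TSPAN1*, *TSPAN2*, *TSPAN4*, *TSPAN11*, *TSPAN12*, *TSPAN18*, *TSPAN19* and *TSPAN32* hardly varied. A further list mixed tetraspanin partners with tetraspanins outside the name rule, such as *CD53*, *UPK1A*, *UPK1B*, *PRPH2* and *ROM1*. Of its genes on the array 3 of 8 varied, of which 2 rose and 1, *UPK1B*, did not pass. Of all varying probe sets 34.0% were higher and 31.7% lower. *TSPO*, a mitochondrial translocator protein that is on the list although it is not known to bind tetraspanins, rose by 3.45 (adjusted p = 6.27e-04).

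A list of further gamete genes, which does not hold *CD9* and *CD81* and of which zona pellucida genes are a large part, had 6 genes on the array. Of these 5 varied, and 4 fell, 0 rose and 1 did not pass, beside 31.7% lower and 34.0% higher of all varying probe sets, with a median difference of -0.95. The zona pellucida genes *ZP3* and *ZP4*, which encode proteins of the egg coat, are also among the oocyte markers, and they fell by 3.78 (adjusted p = 6.49e-05) and 3.15 (adjusted p = 4.95e-04). *ADAM12*, a metalloprotease with a disintegrin domain, fell by 0.95 (adjusted p = 0.00385).

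Of 23 other adhesion molecules only 6 varied, of which 2 rose, 2 fell and 2 did not pass, beside 34.0% higher and 31.7% lower of all varying probe sets. *THY1*, a surface glycoprotein that binds integrins, was at 9.93 ± 0.51 in IVM oocytes and 8.36 ± 0.46 in immature oocytes (SD, n = 5 each), a difference of 1.57 (adjusted p = 0.00506). *CD58*, the ligand of CD2 on T cells, was at 7.47 ± 0.59 in IVM oocytes and 11.28 ± 0.39 in immature oocytes (difference -3.81, adjusted p = 4.11e-05), and the glypican *GPC3* fell by 1.79 (adjusted p = 4.99e-04).

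**Figure D5:**
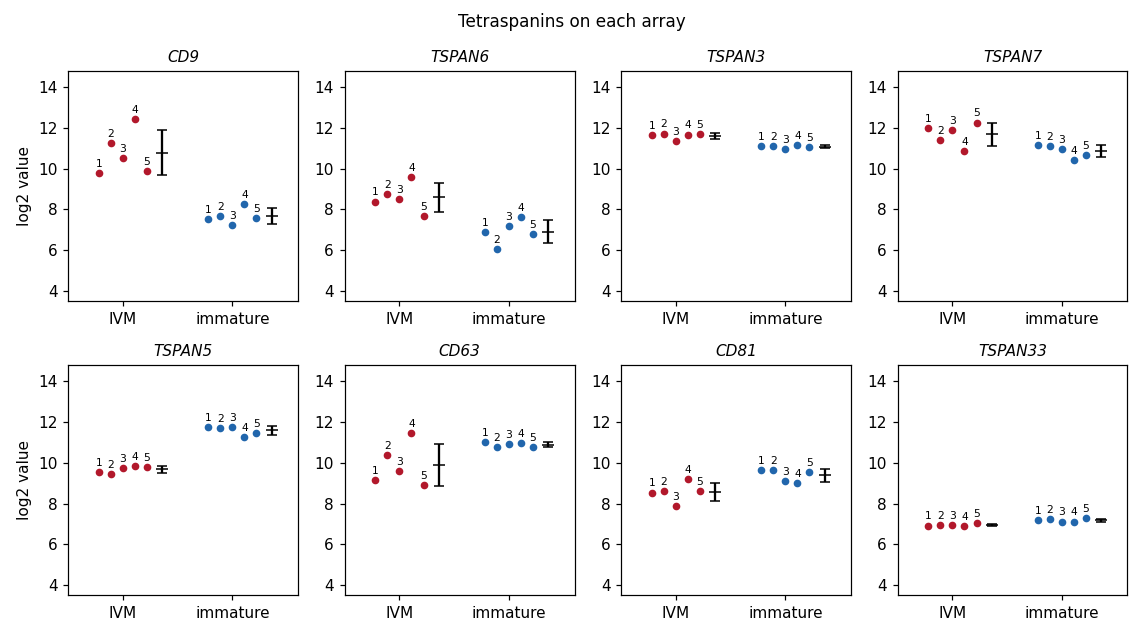
Log2 value (y axis) of tetraspanins on each IVM (red) and immature (blue) array, with array numbers, and mean ± SD in black. *CD9* and *TSPAN3* are higher and *TSPAN5* and *TSPAN33* lower on all IVM arrays, and only array 4 of the IVM group (11.44) lies above the immature arrays for *CD63*.

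The arrays numbered 4 were both the highest of their group for 17 of the 47 probe sets (36.2%), against 1821 of 9460 varying probe sets (19.2%), and both the lowest for 4 (8.51%), against 17.3%. Of the 14 probe sets that rose, 10 had this order, namely those of *ITGA2*, *ITGAV*, *ITGB3*, *CDH2*, *CLDN11*, *DSC2*, *VCAM1*, *CD9* and *TSPAN6*, and the other 4 were *CDH1*, *CTNNA1*, *F11R* and *TSPAN3*. Of the 7 that fell, 0 had it, and *CLDN10* had the arrays numbered 4 lowest, with *CDH3*, *PKP4* and *TSPAN7* among those that did not pass. The shares of these orders among all probe sets that rose or fell were not counted. IVM array 4 correlated least with its own group over all probe sets (mean r = 0.933, the other arrays at least 0.954). Without both arrays numbered 4, 20 of the 47 were higher and 8 lower at 0.05, a setting chosen after seeing the data. Of all 24016 probe sets 3658 were higher and 3357 lower in that setting, against 3732 and 3602 with all arrays.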

How the data were processed

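RNA of 5 pools of IVM and 5 pools of immature bovine oocytes was hybridized to Affymetrix bovine arrays, 1 pool per array. The deposited values are log2 signals that the authors made by quantifying the arrays with GCOS and summarizing probes per probe set with FARMS after quantile normalization, which gave array medians of 7.04 to 7.10. Quantile normalization gives all arrays the same distribution, so a change shared by most transcripts is not seen. FARMS gives a probe set without common signal among its probes a nearly constant value, so a probe set that hardly varied may still be expressed. Values of *TSPAN33* lay close to the array medians, and the group means of *GJB2* and the immature values of *DSC2* and *VCAM1* lay below them. Whether such low values are above background was not tested. The number of arrays limits the precision.

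Of 24016 probe sets (112 control probe sets apart), 13292 had a single annotated symbol, 86 had several and 10638 are unnamed here. Symbols were updated by gene ID (13263) or accession (2) or kept (27). Differences, IVM minus immature, were fitted by limma (3.58.1, in R 4.3.3) with empirical Bayes moderation (prior degrees of freedom 0.103) and Benjamini-Hochberg adjustment over all 24016, at thresholds of 0.0001 and 0.05. Intervals are 95% intervals from this fit. Controls were compared by an exact permutation test (scipy 1.17.1). The SAM permutations of the study's methods were not run. Tables and plots were made in Python 3.11.15 (pandas 2.3.3, numpy 2.4.6, matplotlib 3.10.9).

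The members and gene lists were chosen with earlier results of these data known. Genes were named by rule: in each family the 4 largest positive and the 4 most negative differences among varying probe sets, those past 0.0001, varying connexins, genes whose probe sets disagreed, the 5 genes with the highest means, up to 3 genes in each direction of a comparison list, and the markers. *CDH8*, *CTNNB1*, *CD151*, *TSPAN3*, *TSPAN13* and *TSPAN31* fell outside it and were named after their values were seen. On simulated data for the 24016 probe sets, 45 of 100 changes of 2 on the log2 scale and 9 of 100 of 1 passed 0.0001, with 0 false calls, and 86 and 47 passed 0.05, with 3 false calls. No other probe set was changed there, and noise was drawn independently for each value. In the data 3732 probe sets were higher and 3602 lower at 0.05 and arrays deviated together, so these rates need not hold for them. Sequences were not used here.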

Additional observations from a re-analysis of the deposited data

Results flagged for a closer look

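*TSPAN3* in IVM oocytes had 1 array far from the others. IVM replicate 3 was at 11.36 on the log2 scale and the nearest other IVM array at 11.63, a gap of 0.743 of the range of the 5 IVM arrays, where 0.71 is the critical value of Dixon's test for 5. It was the only such case among 94 sets of 5 arrays tested (47 varying probe sets in 2 groups), and chance gives about 1 in 20. Without this array *TSPAN3* passed 0.0001 in the limma fit (adjusted p = 3.61e-05).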

How the results depend on the processing

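Over the 142 probe sets, 0 were higher and 1 lower in IVM oocytes at 0.0001, and 15 were higher and 13 lower at 0.05. Leaving out 1 array at a time gave 0 to 1 higher and 1 to 2 lower at 0.0001, and 12 to 21 higher and 10 to 13 lower at 0.05, and 4 of the 21 calls named were lost without at least 1 array. Centring on poly-A controls gave 2 higher and 112 lower at 0.0001, and 9 higher and 123 lower at 0.05, by its construction, since it lowers every difference by 0.94. Of all 24016 probe sets it gave 165 higher and 18661 lower at 0.0001, and 807 and 20427 at 0.05. With only the most variable probe sets, as many as the study called informative, 3 were lower at 0.0001 (*CTNNBL1* and *CLDN10* beside *TSPAN5*) and 8 at 0.05, with fewer probe sets tested and other prior degrees of freedom (2.51, against 0.103). With median centring 7 were lower at 0.05, beside 2957 of all 24016. With immature replicates 4 and 5 alone 0 were lower at 0.0001, and 3 were higher and 5 lower at 0.05, with fewer arrays. Of all 24016 probe sets 4 were lower at 0.0001 in that setting, and 1235 were higher and 2177 lower at 0.05. The trend and robust options, 1 probe set per gene and the removal of both arrays numbered 4 kept all counts within 1.5 times.

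Equal replicate numbers are not stated to be the same day, and same-numbered arrays deviated with r of 0.143, -0.347, 0.0872, 0.672 and 0.359 over the varying probe sets. Differently numbered arrays ran from -0.703 (IVM array 5 with immature array 4) to 0.628 (IVM array 5 with immature array 2). With the replicate block 0 were lower at 0.0001, where 0 of all 24016 probe sets passed, and 8 were lower at 0.05. With the block and the most variable probe sets, a setting added after seeing the data, 2 and 7 were lower. The block ended the calls of *CDH1* (adjusted p = 0.0524), *CD81* (0.0957) and *ADAM10* (0.0817) in the limma fit, and put *TSPAN5* at 0.00365. With the block and the most variable probe sets, the adjusted p of *TSPAN33* was 0.0572.

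Differences that turned negative with poly-A centring were *ITGB1* (-0.84), *ITGB5* (-0.91), *CDH17* (-0.039), *CDH3* (-0.38), *CDH8* (-0.85), *CTNNA1* (-0.39), *CTNNAL1* (-0.38 and -0.74), *CTNNB1* (-0.90), *CTNNBIP1* (-0.82), *F11R* (-0.42), *TJP3* (-0.93), *GJA1* (-0.68), *JUP* (-0.13), *PKP4* (-0.34), *SDC3* (-0.77), *TSPAN14* (-0.78), *TSPAN3* (-0.38), *TSPAN31* (-0.88) and *TSPAN7* (-0.11), and in the lists *PARD6B* (-0.017), *CD47* (-0.70), *BSG* (-0.63), *CD46* (-0.69), *ADAM10* (-0.34) and *UPK1B* (-0.11). Small differences also changed sign with immature replicates 4 and 5 alone for *CLDN12* (0.16), *GJA1* (-0.61) and *UPK1B* (-0.49), without both arrays numbered 4 for *ITGB5* (-0.15) and *TSPAN31* (-0.19), and with median centring for *PERP* (0.0020). Over the removals of 1 array, *ITGB5* ran from -0.13 to 0.13, *TJP3* from -0.0082 to 0.0141, *GJA1* from -0.42 to 0.78, *GJC1* from -0.36 to 0.076, *CD151* from -0.37 to 0.21, *TSPAN31* from -0.17 to 0.17 and *UPK1B* from -0.00231 to 1.31. None of these, apart from *CTNNA1*, *F11R*, *TSPAN3*, *PARD6B*, *CD47* and *ADAM10*, was past 0.05. The cause was not tested.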
